A study of Mus musculus with 16 samples.

Results

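RNA levels of 38 genes of glycolysis and of the response to low oxygen were followed in mouse pre-B cells (16 libraries), precursors of the B lineage from which acute lymphoblastic leukaemia with BCR-ABL1 arises. The genes were taken by symbol from the deposited FPKM table (fragments per kilobase of transcript and relative to the total of mapped fragments), in which they are 38 of 23279 symbols. Of these, 20 encode glycolytic enzymes and transporters of glucose or lactate, and 18 encode hypoxia-responsive proteins and regulators. The 16 libraries fall into 4 groups of 4 libraries, numbered 0 to 3 in the labels. The groups were SHP2 wild type (SHP2+/+) without BCR-ABL1, SHP2-null (SHP2-/-) without BCR-ABL1, SHP2 wild type with BCR-ABL1 and SHP2-null with BCR-ABL1. The labels mark BCR-ABL as WT (+/+) or NULL (-/-), which was read as with and without BCR-ABL1 because the protocol names libraries of both SHP2 genotypes as WT or BCR-ABL1, and every direction given for BCR-ABL1 rests on that reading. BCR-ABL1 is an ABL1 kinase that a fusion with BCR keeps switched on. SHP2 is the phosphatase product of Ptpn11 and links growth factor receptors to RAS and ERK. The sources used here do not give how SHP2 was deleted, how BCR-ABL1 was introduced, the age of the mice or the oxygen and density at which cells were grown. Nothing in the labels ties the 4 libraries of a group to separate mice or cultures, so each p-value reflects a spread that may be technical.

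Glycolysis splits glucose into pyruvate in the cytosol, and lactate dehydrogenase turns pyruvate into lactate, which leaves the cell through monocarboxylate transporters. When oxygen is scarce, the prolyl hydroxylases encoded by the Egln genes no longer mark the HIF alpha subunit for degradation by VHL, and HIF with its partner ARNT then binds a short core motif near its target genes. Those targets include most glycolytic enzymes, the lactate exporter Slc16a3 and proteins that lower the demand of mitochondria for oxygen, and dividing B-cell precursors are known to rely on glucose uptake.

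At least 1 FPKM in at least 4 libraries was asked of a gene for testing, which left 10210 genes, among them 35 of the 38. The enolase isoform Eno2 (0 to 0.0414 FPKM), the lactate dehydrogenase subunit Ldhb (0.165 to 1.04 FPKM) and the collagen hydroxylase subunit P4ha2 (0 to 0.371 FPKM) did not pass. Slc16a3 and Ak4 passed only through the libraries in which they were high. Files of FPKM hold no read counts, so the depth behind each value is unknown, and the summed FPKM of a library ran from 348923 to 443702. Ptpn11, the check of the labels, lay at 15.7 to 18 FPKM across wild-type libraries and at 2.87 to 7.43 FPKM across SHP2-null libraries. All 11 markers of pre-B cells, such as Igll1 and Pax5, reached 1 FPKM in each library, and they summed to 2759 to 3757 FPKM. Stromal markers summed to at most 0.315 FPKM. SHP2-null library 2 without BCR-ABL1 stood apart from the rest, since 7 of 10 myeloid markers reached 1 FPKM there and summed to 434.7 FPKM, of which the macrophage and neutrophil lysozyme Lyz2 made up 403 FPKM. In the other libraries 2 to 5 of the 10 reached 1 FPKM, with sums from 5.25 to 40.0 FPKM. Mast cell markers such as Cpa3 summed to 8.11 to 13.9 FPKM in wild type without BCR-ABL1, 0.246 to 13.2 FPKM in SHP2-null without it, 1.05 to 3.71 FPKM in wild type with it and 0.8 to 2.36 FPKM in SHP2-null with it. In the cells with BCR-ABL1, 3 or 4 of the 6 mast cell markers were listed at 0, among them Cma1. Of 8 erythroid and megakaryocyte markers at most 1 reached 1 FPKM in a library, the globin Hbb-b1. Their sums were 2.77 to 11.2 FPKM in wild type and 1.27 to 3.37 FPKM in SHP2-null cells without BCR-ABL1, and 2.2 to 4.99 FPKM and 3.31 to 5.92 FPKM in the same order with it.

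The core motif of HIF gives these genes a feature that can be read from sequence. It was searched as ACGTG or GCGTG on both strands in RefSeq promoter windows of the build GRCm38.p6, which run from 250 bases before to 50 bases after each annotated start. A CACGTG stretch holds ACGTG on each strand and counts as 2 overlapping matches. The part of the window before the start is printed, 5′ to 3′ in the direction of transcription and with the matches in capitals, for 5 genes whose levels the results turn on and for Vegfa, a HIF target whose level did not follow the others. Where RefSeq lists several starts, the window listed at the top was taken.
Slc16a3: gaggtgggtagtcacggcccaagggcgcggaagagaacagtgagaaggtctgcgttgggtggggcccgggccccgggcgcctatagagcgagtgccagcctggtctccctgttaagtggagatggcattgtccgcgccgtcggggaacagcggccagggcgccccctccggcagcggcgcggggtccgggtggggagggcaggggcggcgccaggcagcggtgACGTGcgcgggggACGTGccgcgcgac
Ak4: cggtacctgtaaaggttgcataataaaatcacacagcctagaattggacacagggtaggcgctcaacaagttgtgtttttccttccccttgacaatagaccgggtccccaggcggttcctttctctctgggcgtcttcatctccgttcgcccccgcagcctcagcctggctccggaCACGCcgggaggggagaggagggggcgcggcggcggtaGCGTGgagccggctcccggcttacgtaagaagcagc
Bnip3: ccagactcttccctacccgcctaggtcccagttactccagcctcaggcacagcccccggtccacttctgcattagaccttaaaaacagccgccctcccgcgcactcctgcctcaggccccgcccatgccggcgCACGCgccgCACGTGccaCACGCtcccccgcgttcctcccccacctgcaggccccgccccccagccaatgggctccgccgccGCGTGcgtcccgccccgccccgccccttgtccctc
Ankrd37: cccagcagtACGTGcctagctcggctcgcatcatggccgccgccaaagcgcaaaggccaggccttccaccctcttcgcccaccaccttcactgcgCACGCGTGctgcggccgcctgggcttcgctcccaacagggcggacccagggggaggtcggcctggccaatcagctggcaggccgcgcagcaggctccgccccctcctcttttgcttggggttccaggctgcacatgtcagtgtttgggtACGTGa
Kdm3a: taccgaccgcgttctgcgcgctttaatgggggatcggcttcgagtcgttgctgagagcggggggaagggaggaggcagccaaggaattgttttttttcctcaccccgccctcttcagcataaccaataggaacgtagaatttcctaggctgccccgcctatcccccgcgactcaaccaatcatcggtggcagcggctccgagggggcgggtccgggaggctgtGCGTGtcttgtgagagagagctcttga
Vegfa: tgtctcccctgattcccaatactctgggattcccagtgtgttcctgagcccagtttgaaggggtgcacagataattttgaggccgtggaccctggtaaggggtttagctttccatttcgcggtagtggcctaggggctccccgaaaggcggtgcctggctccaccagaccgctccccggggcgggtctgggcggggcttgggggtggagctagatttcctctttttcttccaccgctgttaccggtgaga
These 250 bases lie at chr11:120948817-120949066, plus strand, for Slc16a3, at chr4:101419039-101419288, plus strand, for Ak4, and at chr7:138909507-138909756, minus strand, for Bnip3. They lie at chr8:45999851-46000100, minus strand, for Ankrd37, at chr6:71632918-71633167, minus strand, for Kdm3a, and at chr17:46032378-46032627, minus strand, for Vegfa. The Slc16a3 promoter holds 2 matches, which begin 27 and 14 bases before the start. Bnip3 has 5 and Ankrd37 4. The Ak4 stretch shown, from 1 of 4 RefSeq windows, has 2, and the others have 2 or 3. The Kdm3a stretch shown has 1, and the other RefSeq windows of Kdm3a, 2 in number, have 0. The Vegfa stretch shown has 0, and another RefSeq window of Vegfa has 2. Windows were found for 35 of the 38 genes (Ero1l under its newer symbol Ero1a) and not for Slc2a3, Bnip3l and Ndrg1. At least 1 match was present in 79.6% of the 54 windows of these genes, against 43.8% of all 32851 windows. The windows of the 38 genes were rich in G and C (median 64.5%, against 52.7% over all windows), and among the 6659 windows within 5 percentage points of that median 67.2% held a match. The letters did not separate genes by how closely they moved with the others, by the correlation (r) described below. A match in at least 1 window was present in 22 of 24 genes at r of 0.80 or more and in 8 of 8 below it. Those 8 include Aldoc (0.79) and Ankrd37 (0.76), which lay just under the cut.

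These genes differed widely between libraries of the same group. Each library was given a score, the mean over the 35 genes tested of the deviation of log2(FPKM + 1) from the mean of that gene over the 16 libraries. Without BCR-ABL1 the scores of libraries 0 to 3 were -0.35, -0.21, 0.25 and 0.77 in wild type and -0.29, -0.30, -0.33 and -0.14 in SHP2-null cells. With BCR-ABL1 they were -0.36, -0.35, 0.33 and -0.22 in wild type and -0.04, -0.03, 0.77 and 0.49 in SHP2-null cells. Wild-type library 3 without BCR-ABL1 and SHP2-null library 2 with BCR-ABL1 thus scored alike, although they differ in both genotypes. Wild-type libraries 0 and 1 without BCR-ABL1 scored below the highest SHP2-null library of that background. The mean deviation over all 10210 genes lay between -0.04 and 0.04 in every library, a value that scaling FPKM to each library's total and centring each gene hold near 0. Group means were 0.12 ± 0.51 (SD, n = 4) in wild type and -0.26 ± 0.08 in SHP2-null cells without BCR-ABL1. With BCR-ABL1 they were -0.15 ± 0.33 in wild type and 0.30 ± 0.40 in SHP2-null cells. The score is centred on the 16-library mean, so its 0 is no reference level.

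**Figure D1:**
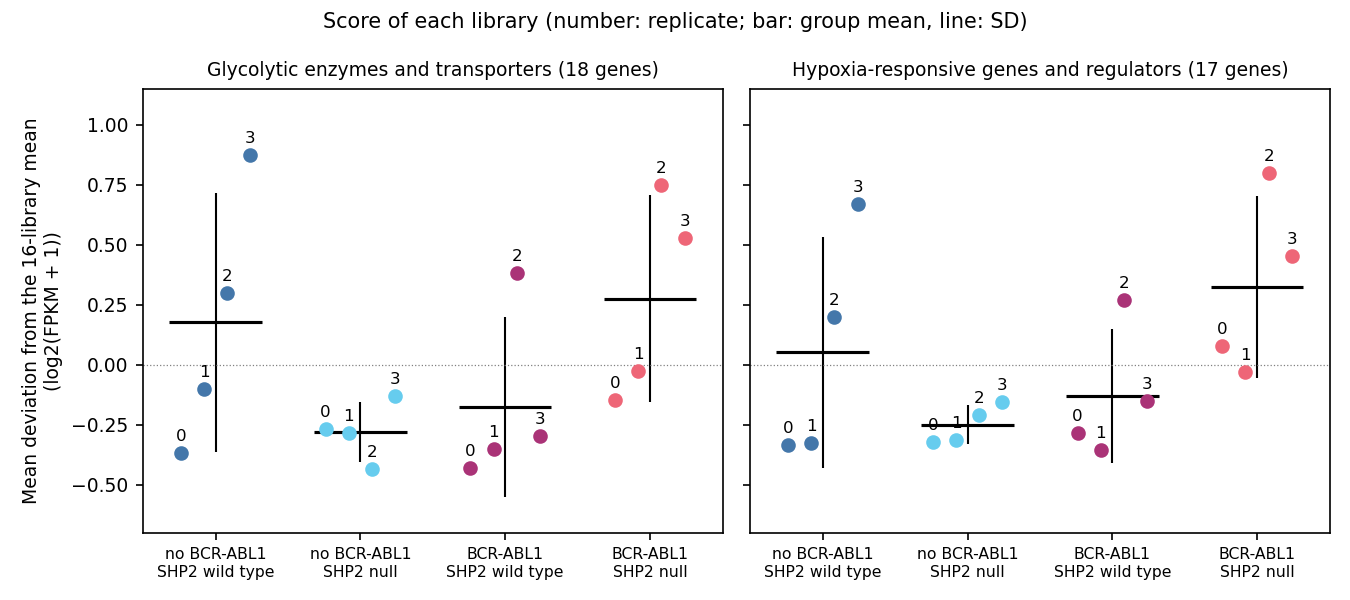
Score of each library (mean deviation of log2(FPKM + 1) from the 16-library mean), for 18 glycolytic genes on the left and 17 hypoxia-responsive genes on the right. Points are libraries with their replicate number, horizontal bars are group means and vertical lines the SD over 4 libraries. Both panels place wild-type library 3 without BCR-ABL1 and SHP2-null library 2 with BCR-ABL1 at the top.

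Scored apart, the 18 glycolytic and the 17 hypoxia-responsive genes had the same libraries at the top but differed in lower ones. SHP2-null library 0 with BCR-ABL1 scored -0.15 on the glycolytic and 0.08 on the hypoxia-responsive genes. SHP2-null library 3 without BCR-ABL1 scored -0.13 and -0.15, so these groups overlapped on the glycolytic genes and not on the others. Wild-type library 3 without BCR-ABL1 scored 0.87 on the glycolytic and 0.67 on the hypoxia-responsive genes, and SHP2-null library 2 with BCR-ABL1 scored 0.75 and 0.80. Of the 35 genes, 33 lay above their 16-library mean in wild-type library 3 without BCR-ABL1, as did 52.6% of all genes. In SHP2-null cells with BCR-ABL1, 35 did so in library 2 (54.2% of all genes) and 33 in library 3 (61.3% of all genes). Wild-type library 3 without BCR-ABL1 held the highest value of all 16 libraries for 20 of the 35 genes, where 8.30% of all genes tested peaked in that library. The libraries counted above and below were taken for their high scores, which these same genes set. The counts restate the score gene by gene and give it no separate support. Within wild type without BCR-ABL1, libraries 2 and 3 were the top pair for 27 of 35 genes, against 24% of all genes. Libraries 2 and 3 of the SHP2-null cells with BCR-ABL1 were the top pair for 29 of 35 genes, against 33.9% of all genes. For 30 of 35 genes wild-type library 2 was the highest of its group with BCR-ABL1, against 23.4% of all genes. The median SD of log2(FPKM + 1) within wild type without BCR-ABL1 was 0.51 for the 35 genes and 0.12 for all genes. It was 0.43 and 0.14 in SHP2-null cells with BCR-ABL1 and 0.32 and 0.14 in wild type with BCR-ABL1. In SHP2-null cells without BCR-ABL1, where all 4 scores were low, the medians were 0.19 and 0.14.

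Most of the genes moved together from library to library. For each gene, the deviations from its group means were correlated with the mean deviation of the other 34 genes over the 16 libraries, which gave a median r of 0.93, against 0.11 for the other genes tested. These correlations describe libraries that share sequencing runs and cell preparations to an unknown degree, and they carry no test. Of the 35 genes 25 reached r of 0.80 or more, as did 1.71% of the other genes tested (174 genes). Pfkp (0.99), Pgk1 (0.98), Aldoa (0.98) and Tpi1 (0.98) followed the others most closely. At the other end stood the angiogenic factor Vegfa (-0.27), the bifunctional regulators of fructose 2,6-bisphosphate Pfkfb4 (0.00) and Pfkfb3 (0.29), and the muscle-type phosphofructokinase Pfkm (0.37). Ndrg1 (0.50), Hk1 (0.53) and Ddit4 (0.55) lay between. Among genes outside the 38, those most like the set were Mgarp (0.99), Slc37a4 (0.97), Gm129 (0.97) and Bsg (0.96). Mgarp encodes a mitochondrial protein and Slc37a4 the glucose-6-phosphate transporter. Bsg encodes basigin, the partner protein that brings monocarboxylate transporters to the cell surface. Mgarp reached 1 FPKM only in wild-type library 3 without BCR-ABL1 (2.64), wild-type library 2 with it (1.06) and SHP2-null libraries 2 and 3 with it (3.11 and 1.94). It thus passed the filter only through libraries in which the set was high. Without BCR-ABL1, Bsg read 54.1, 62.2, 74.2 and 95.8 FPKM in wild-type libraries 0 to 3 and 56.4, 57.9, 59.6 and 73.7 FPKM in SHP2-null libraries 0 to 3. With BCR-ABL1, Bsg read 56, 59, 84.8 and 67.4 FPKM in the wild type, against 54.6, 58.1, 87.8 and 84.2 FPKM in SHP2-null cells. Like the glycolytic genes, Bsg was highest in libraries 2 and 3 of wild type without BCR-ABL1 and of SHP2-null with it.

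**Figure D2:**
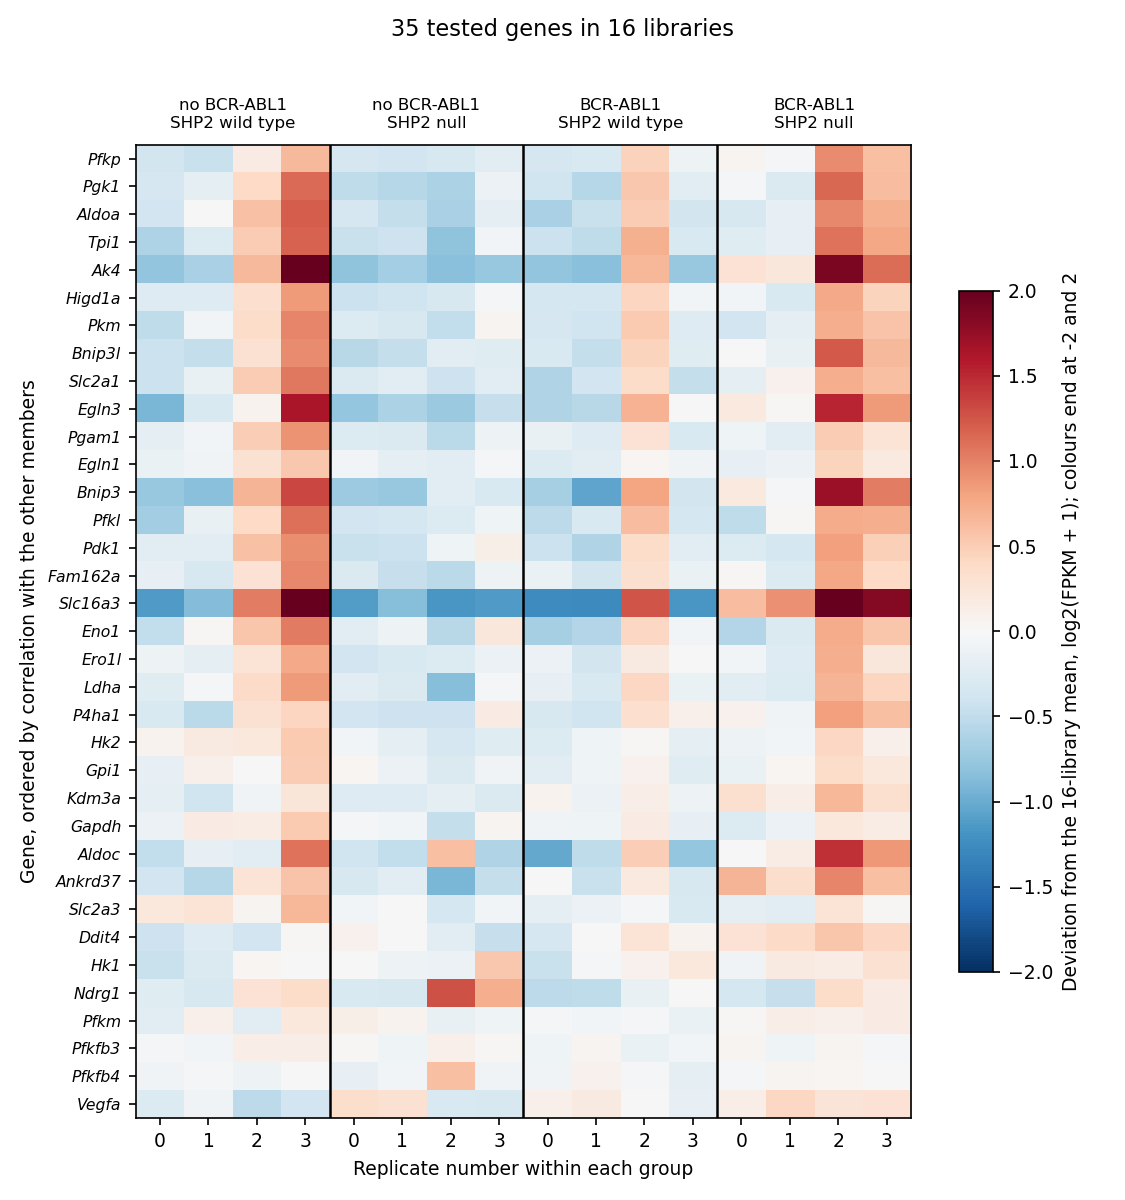
Deviation of log2(FPKM + 1) from the 16-library mean for the 35 genes tested (rows, ordered by correlation with the other genes) in the 16 libraries (columns, by group and replicate number), with red above and blue below the mean. The red columns are wild-type libraries 2 and 3 without BCR-ABL1, wild-type library 2 with BCR-ABL1 and SHP2-null libraries 2 and 3 with BCR-ABL1, while the bottom rows, Vegfa and Pfkfb4 among them, do not follow.

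Glucose enters through transporters and is trapped by hexokinases. Slc2a1, which encodes the broadly expressed transporter GLUT1, ran from 5.0 to 17.9 FPKM, with its highest values in wild-type library 3 without BCR-ABL1 (17.9) and SHP2-null library 2 with BCR-ABL1 (14.0). Without BCR-ABL1, Slc2a3 read 3.02, 3.18, 2.6 and 4.47 FPKM in wild-type libraries 0 to 3 and 2.31, 2.49, 1.7 and 2.32 FPKM in SHP2-null libraries 0 to 3. With BCR-ABL1, Slc2a3 read 2.0, 2.17, 2.39 and 1.8 FPKM in the wild type, against 2.03, 1.99, 3.17 and 2.51 FPKM in SHP2-null cells. Each wild-type library without BCR-ABL1 read more of Slc2a3, a high-affinity glucose transporter, than each SHP2-null library without BCR-ABL1 and each wild-type library with BCR-ABL1, while both groups with BCR-ABL1 overlapped. Without BCR-ABL1, Hk2 read 9.67, 10.6, 10.8 and 13.7 FPKM in wild-type libraries 0 to 3 and 8.82, 8.06, 7.12 and 7.62 FPKM in SHP2-null libraries 0 to 3. With BCR-ABL1, Hk2 read 7.47, 8.6, 9.37 and 7.87 FPKM in the wild type, against 8.53, 8.82, 12.6 and 9.94 FPKM in SHP2-null cells. Hk2, the inducible hexokinase that binds mitochondria, showed the same lack of overlap, and its SHP2-null libraries with BCR-ABL1 overlapped with both wild-type groups. Of all genes tested, 9.09% did not overlap for SHP2 loss without BCR-ABL1 and 11.7% for BCR-ABL1 in wild type. Hk1, the constitutive hexokinase, ran from 9.54 to 19.8 FPKM with its highest value in SHP2-null library 3 without BCR-ABL1.

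In the upper part of the pathway, from glucose 6-phosphate to the triose phosphates, the aldolase Aldoa and the isomerase Tpi1 had the widest library differences among abundant genes. Without BCR-ABL1, Aldoa read 145, 189, 286 and 437 FPKM in wild-type libraries 0 to 3 and 150.1, 135, 119.9 and 168 FPKM in SHP2-null libraries 0 to 3. With BCR-ABL1, Aldoa read 119.9, 139, 269.6 and 147 FPKM in the wild type, against 151, 169.6, 370.4 and 311 FPKM in SHP2-null cells. Aldoa was highest in library 2 or 3 of each group, and the 4 groups overlapped. Without BCR-ABL1, Tpi1 read 126, 159.8, 276 and 438 FPKM in wild-type libraries 0 to 3 and 141, 144, 109.5 and 185 FPKM in SHP2-null libraries 0 to 3. With BCR-ABL1, Tpi1 read 143, 134, 318 and 156 FPKM in the wild type, against 163, 172, 410.3 and 330.0 FPKM in SHP2-null cells. Tpi1 repeated the pattern of Aldoa, with 438 and 410.3 FPKM in the top libraries of opposite genotype. In wild-type library 3 without BCR-ABL1 Tpi1 stood 3.07-fold and Aldoa 2.62-fold above the mean of wild-type libraries 0 and 1. Without BCR-ABL1, Aldoc read 2.56, 3.47, 3.35 and 9.65 FPKM in wild-type libraries 0 to 3 and 2.81, 2.57, 6.67 and 2.31 FPKM in SHP2-null libraries 0 to 3. With BCR-ABL1, Aldoc read 1.49, 2.55, 6.08 and 1.96 FPKM in the wild type, against 3.99, 4.6, 12.9 and 8.19 FPKM in SHP2-null cells. Aldoc, the brain-type aldolase, was low on the FPKM scale, and its 6.67 FPKM in SHP2-null library 2 without BCR-ABL1 came from the library with 7 myeloid markers at 1 FPKM or more (the part of these cells in the value was not tested). The phosphofructokinases catalyse the committed step. Pfkl (liver type) ran from 13.4 to 49.3 FPKM and Pfkp (platelet type) from 14.7 to 40.1 FPKM, while Pfkm stayed within 3.44 to 4.99 FPKM. The isomerase Gpi1 ran from 85.8 to 149.9 FPKM.

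The lower part of the pathway, from glyceraldehyde 3-phosphate to pyruvate, held several of the most abundant transcripts of the set, which can be set side by side because FPKM is scaled to length. Without BCR-ABL1, Pgk1 read 272, 303, 453 and 754 FPKM in wild-type libraries 0 to 3 and 241, 231, 222 and 316 FPKM in SHP2-null libraries 0 to 3. With BCR-ABL1, Pgk1 read 262, 232, 501 and 297 FPKM in the wild type, against 334, 282, 765 and 531 FPKM in SHP2-null cells. Pgk1, the kinase of the earlier ATP-forming step, was thus highest in SHP2-null library 2 with BCR-ABL1 and wild-type library 3 without it. Without BCR-ABL1, Pgam1 read 99.4, 110.4, 160.2 and 213 FPKM in wild-type libraries 0 to 3 and 94.2, 93.5, 78.7 and 106 FPKM in SHP2-null libraries 0 to 3. With BCR-ABL1, Pgam1 read 103, 95.1, 139 and 92 FPKM in the wild type, against 108, 98.4, 162 and 139 FPKM in SHP2-null cells. Without BCR-ABL1, wild-type libraries 1, 2 and 3 read more of the mutase Pgam1 than any SHP2-null library, and wild-type library 0 fell within the SHP2-null range. Gapdh, often taken as a reference gene, ran from 659.6 to 1326 FPKM, a span of 2.01-fold, and it was highest in wild-type library 3 without BCR-ABL1. The enolase Eno1 ran from 188 to 614 FPKM, and the pyruvate kinase Pkm from 277 to 773 FPKM. Glycolytic genes such as these have processed pseudogenes in the mouse genome, and the sources used here do not say how multiply mapped reads were assigned, so their absolute levels are uncertain.

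In the lactate branch, the exporter Slc16a3 had the largest range of log2(FPKM + 1) over the 16 libraries among the 35 genes tested (3.48), while by the ratio of highest to lowest FPKM it came after Ak4 (43.2, against 76.1). Without BCR-ABL1, Slc16a3 read 0.457, 0.75, 5.47 and 12.6 FPKM in wild-type libraries 0 to 3 and 0.465, 0.769, 0.417 and 0.458 FPKM in SHP2-null libraries 0 to 3. With BCR-ABL1, Slc16a3 read 0.332, 0.317, 6.59 and 0.418 FPKM in the wild type, against 3.9, 5.01, 13.7 and 10.4 FPKM in SHP2-null cells. Slc16a3 was at 3.90 to 13.7 FPKM in 7 libraries and at 0.317 to 0.769 FPKM in the other 9, with no value between. The 7 were wild-type libraries 2 and 3 without BCR-ABL1, wild-type library 2 with BCR-ABL1 and all 4 SHP2-null libraries with BCR-ABL1. Ratios of its FPKM were 20.8 between wild-type library 3 without BCR-ABL1 and the mean of libraries 0 and 1 of that group, and 18.5 between wild-type library 2 with BCR-ABL1 and the mean of the other 3. Ldha, the dehydrogenase subunit that favours lactate, was expressed in every library at 288 to 945 FPKM, and its highest value again came from wild-type library 3 without BCR-ABL1.

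Of the regulators of flux, Pdk1 followed the set and the Pfkfb genes did not. Without BCR-ABL1, Pdk1 read 18.6, 18.7, 33.7 and 42.8 FPKM in wild-type libraries 0 to 3 and 15.8, 16.1, 20.6 and 23.9 FPKM in SHP2-null libraries 0 to 3. With BCR-ABL1, Pdk1 read 16.1, 14.2, 28.8 and 18.6 FPKM in the wild type, against 18, 17, 39.6 and 31 FPKM in SHP2-null cells. Pdk1, the kinase that switches off pyruvate dehydrogenase, was at 28.8 to 42.8 FPKM in the 5 libraries with a positive score and at 14.2 to 23.9 FPKM in the others. Pfkfb3 varied little, from 13.4 to 16.4 FPKM. Pfkfb4 ran from 1.13 to 2.67 FPKM, and its highest value was in the SHP2-null library 2 with the myeloid markers.

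Genes of the HIF feedback loop and of oxygen sensing behaved unevenly. Without BCR-ABL1, Egln3 read 0.817, 1.76, 2.58 and 9.56 FPKM in wild-type libraries 0 to 3 and 1.0, 1.2, 1.04 and 1.47 FPKM in SHP2-null libraries 0 to 3. With BCR-ABL1, Egln3 read 1.26, 1.32, 4.53 and 2.38 FPKM in the wild type, against 2.91, 2.47, 8.79 and 5.13 FPKM in SHP2-null cells. The oxygen-sensing hydroxylase Egln3 was higher in every SHP2-null library with BCR-ABL1 than in every SHP2-null library without it, and the range of the wild-type libraries without BCR-ABL1 spanned that of all other groups. Without BCR-ABL1, Egln1 read 11, 11.4, 15.1 and 18 FPKM in wild-type libraries 0 to 3 and 11.6, 10.6, 10.2 and 11.9 FPKM in SHP2-null libraries 0 to 3. With BCR-ABL1, Egln1 read 9.83, 10.1, 12.4 and 11.5 FPKM in the wild type, against 10.7, 11.1, 16.9 and 14 FPKM in SHP2-null cells. Egln1, the main hydroxylase of this family in most cells, moved in the same libraries over a narrower range, and the groups overlapped. Without BCR-ABL1, Ankrd37 read 4.02, 3.45, 6.96 and 8.79 FPKM in wild-type libraries 0 to 3 and 4.25, 4.63, 2.48 and 3.75 FPKM in SHP2-null libraries 0 to 3. With BCR-ABL1, Ankrd37 read 5.56, 3.83, 6.56 and 4.29 FPKM in the wild type, against 9.48, 7.4, 11.9 and 9.02 FPKM in SHP2-null cells. For Ankrd37, a short ankyrin repeat protein induced by HIF, all 4 SHP2-null libraries with BCR-ABL1 lay above every SHP2-null library without it and every wild-type library with it, while wild-type library 3 without BCR-ABL1 (8.79 FPKM) fell within their range. Without BCR-ABL1, Kdm3a read 16.9, 14.4, 18.2 and 22.9 FPKM in wild-type libraries 0 to 3 and 16, 15.9, 16.6 and 15.6 FPKM in SHP2-null libraries 0 to 3. With BCR-ABL1, Kdm3a read 20.2, 17.6, 21.2 and 17.8 FPKM in the wild type, against 24.1, 21.1, 30.9 and 24.3 FPKM in SHP2-null cells. The histone demethylase Kdm3a was likewise above every SHP2-null value without BCR-ABL1 in every SHP2-null library with BCR-ABL1, and it overlapped narrowly with wild type with BCR-ABL1 (lowest 21.1 FPKM, against a highest of 21.2 FPKM). Of all genes tested, 3.76% were higher without overlap for BCR-ABL1 in SHP2-null cells and 1.42% for SHP2 loss with BCR-ABL1.

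Mitochondrial genes of the hypoxia response included Ak4 and Bnip3, which ranked next after Slc16a3 by range of log2(FPKM + 1) over the 16 libraries (2.88 and 2.77). By the ratio of highest to lowest FPKM, Bnip3 (7.14) came after Egln3 (11.7) and Aldoc (8.68). Without BCR-ABL1, Ak4 read 0.13, 0.242, 2.05 and 7.02 FPKM in wild-type libraries 0 to 3 and 0.119, 0.216, 0.0922 and 0.152 FPKM in SHP2-null libraries 0 to 3. With BCR-ABL1, Ak4 read 0.13, 0.0938, 2.08 and 0.15 FPKM in the wild type, against 1.39, 1.28, 6.16 and 3.21 FPKM in SHP2-null cells. Ak4, a mitochondrial adenylate kinase, reached 1 FPKM in exactly the 7 libraries in which Slc16a3 did (1.28 to 7.02 FPKM) and was at 0.0922 to 0.242 FPKM in the other 9. Without BCR-ABL1, Bnip3 read 22.1, 20.8, 61.7 and 97.9 FPKM in wild-type libraries 0 to 3 and 22.5, 21.9, 32.3 and 30.7 FPKM in SHP2-null libraries 0 to 3. With BCR-ABL1, Bnip3 read 23.5, 17.8, 66.7 and 29.2 FPKM in the wild type, against 43.5, 36.8, 127 and 78.1 FPKM in SHP2-null cells. Bnip3, a receptor for the removal of mitochondria by autophagy, was present in all libraries and was 4.57-fold higher in wild-type library 3 without BCR-ABL1 than the mean of libraries 0 and 1. Its relative Bnip3l ran from 16.1 to 57.8 FPKM. Higd1a, a small protein of the respiratory chain, ran from 12.5 to 32 FPKM, and Fam162a, a mitochondrial protein linked to cell death, ran from 39 to 113 FPKM. All 3 were lowest in libraries of low score and followed the set at r of 0.95 to 0.97.

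**Figure D3:**
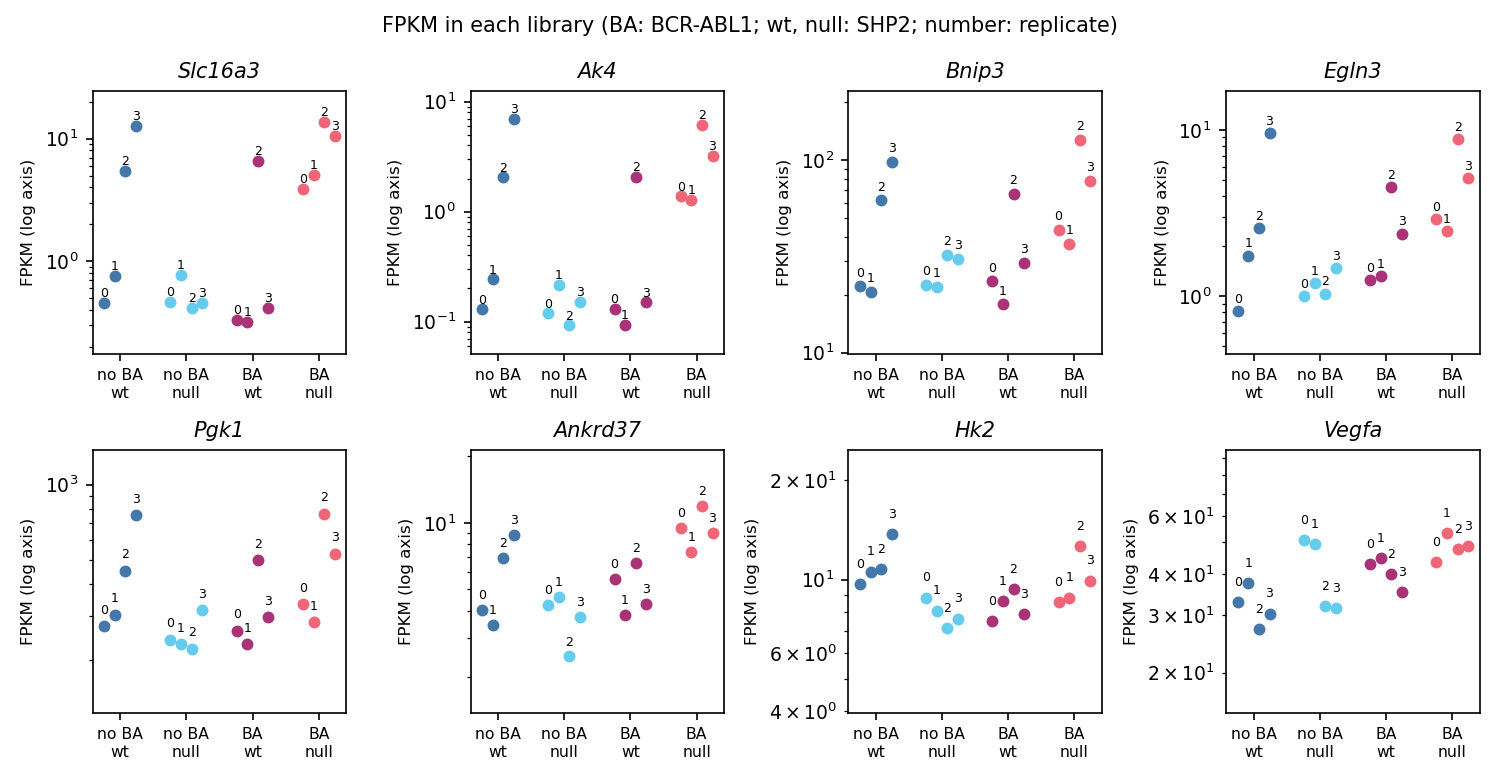
FPKM (log axis) of 8 genes in each of the 16 libraries, by group, with the replicate number at each point. Slc16a3 and Ak4 split into 7 high and 9 low libraries, Ankrd37 is high in all 4 SHP2-null libraries with BCR-ABL1, and Vegfa shows no rise in the libraries in which the others are high.

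Secreted, secretory-pathway and stress genes were mixed. Without BCR-ABL1, Vegfa read 32.8, 37.5, 27.1 and 30.3 FPKM in wild-type libraries 0 to 3 and 50.8, 49.2, 31.9 and 31.4 FPKM in SHP2-null libraries 0 to 3. With BCR-ABL1, Vegfa read 42.7, 44.8, 40.0 and 35.3 FPKM in the wild type, against 43.4, 53.1, 47.5 and 48.5 FPKM in SHP2-null cells. Vegfa was thus lowest in wild-type library 2 without BCR-ABL1, which had a score of 0.25, and wild type without BCR-ABL1 had the lowest group mean. The collagen prolyl hydroxylase subunit P4ha1 (13.5 to 36.1 FPKM) and the disulfide oxidase of the endoplasmic reticulum Ero1l (8.36 to 19.5 FPKM) followed the set at 0.89 and 0.93. Without BCR-ABL1, Ddit4 read 7.48, 8.39, 7.58 and 10.4 FPKM in wild-type libraries 0 to 3 and 10.9, 10.3, 8.62 and 7.19 FPKM in SHP2-null libraries 0 to 3. With BCR-ABL1, Ddit4 read 7.89, 10.1, 12.6 and 10.8 FPKM in the wild type, against 12.8, 13.6, 15.6 and 14 FPKM in SHP2-null cells. Ddit4, an inhibitor of mTORC1 also known as REDD1, was higher in all 4 SHP2-null libraries with BCR-ABL1 than in any other library. The stress-responsive gene Ndrg1 was highest in SHP2-null library 2 without BCR-ABL1 (9.71 FPKM), the library with the myeloid markers, and ran from 2.08 to 6.34 FPKM elsewhere.

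SHP2 loss in the presence of BCR-ABL1 went with higher means for all 35 genes but no gene passed the test. Their mean change was 0.45 and their median 0.33 (log2 of FPKM + 1), beside a median of -0.02 over all genes, and without the filter 36 of 38 were positive. In limma with Benjamini-Hochberg adjustment over all genes, 0 of 35 were called, where 0.313% of all genes were, and 6 had an unadjusted p below 0.05, all of them higher (1.67% of all genes higher). Most of the 35 genes moved together, and all were chosen with earlier results known. Counts of unadjusted p, here and in the comparisons below, are therefore no separate support for a change of the set. The smallest adjusted p was 0.537, for Ankrd37 (0.79 ± 0.23, SE). Slc16a3 differed by 2.01 ± 0.67 (adjusted p = 0.808 in limma), Bnip3 by 1.04 ± 0.50 and Ddit4 by 0.41 ± 0.14 (adjusted p = 0.789). Pfkm, Ankrd37 and Ddit4 were the 3 genes whose 4 SHP2-null libraries all lay above the 4 of wild type, where 1.42% of all genes did so and 3.1% did not overlap in either direction. Between libraries of the same number the score was higher in SHP2-null cells by 0.32, 0.32, 0.44 and 0.72 for numbers 0 to 3. The mean change was 0.29 without SHP2-null library 2 and 0.61 without wild-type library 2. With the replicate number as a block, limma called 0 of 35 (0.47% of all genes), with 15 higher at an unadjusted p below 0.05 (2.98% of all genes higher). The erythroid marker Hbb-b1 had a change of 0.53 (adjusted p = 1.00 in limma), and its part in these values was not tested.

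SHP2 loss in the absence of BCR-ABL1 went with lower means for 29 of the 35 genes, by a mean of -0.38 and a median of -0.45, beside a median of 0.02 over all genes. None was called by limma (1.54% of all genes were), and 7 had an unadjusted p below 0.05, of which 6 were lower (5.39% of all genes lower) and Vegfa was higher. The smallest adjusted p was 0.0770, for Hk2 (-0.45 ± 0.12), and it was 0.0413 with the replicate number as a block, which made Hk2 the 1 gene called in that fit (5.75% of all genes were), while its values under all alternatives lay between 0.0413 and 0.221. Slc2a3 (-0.42 ± 0.13) had an adjusted p of 0.137 in limma, and Pgam1 (-0.58 ± 0.22) one of 0.208. Hk2 and Slc2a3 were also the 2 genes whose groups did not overlap, where 9.09% of all genes did not. Score differences by library number were 0.06, -0.09, -0.58 and -0.92. Leaving out wild-type library 3 brought the mean change from -0.38 to -0.16. Mast cell markers summed to 8.11 to 13.9 FPKM in this wild-type group and to 0.246 to 13.2 FPKM in SHP2-null cells, and 1 of the 3 tested was called lower (Cma1, -1.35, adjusted p = 0.00435 in limma). Cma1 reached 1 FPKM only in this wild-type group and in SHP2-null library 2 without BCR-ABL1. It thus passed the filter mainly through the group where it was high, and its call is no separate support. Erythroid and megakaryocyte markers summed to 2.77 to 11.2 FPKM in wild type and 1.27 to 3.37 FPKM in SHP2-null cells, with a change of -1.50 in Hbb-b1 (adjusted p = 0.117). Myeloid markers summed to 9.19 to 32.7 FPKM in wild type and 8.45 to 434.7 FPKM in SHP2-null cells. All 5 tested had higher means in SHP2-null cells (median change 0.51), and 0 were called. Without SHP2-null library 2, where they were highest, the mean change of the 35 genes was -0.36. The part of these marker lists in these values was not tested.

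The mean change with SHP2 loss thus had opposite signs with and without BCR-ABL1, but the difference between the effects passed the test for no gene. It was positive for 31 of 35 genes, with a mean of 0.83 and a median of 0.78, beside a median of -0.04 over all genes. limma called 0 of 35, as it called 0.0% of all genes, and 19 of 35 had an unadjusted p below 0.05, all of them positive (1.77% of all genes positive, 5.79% in either direction). As above, these genes moved together, so the count gives no separate support. Slc16a3 had the largest difference (3.35 ± 0.94, adjusted p = 0.606 in limma) and Hk2 the smallest adjusted p (0.597, for a difference of 0.67 ± 0.17). Over leaving out each library in turn, the mean difference ran from 0.61, without wild-type library 3 without BCR-ABL1, to 0.99, without wild-type library 2 with BCR-ABL1. With the block, 27 of 35 had an unadjusted p below 0.05 in the positive direction (3.12% of all genes positive) and 0 were called. The difference was 2.03 for Hbb-b1 (adjusted p = 0.747 in limma) and 1.35 for Cma1 (adjusted p = 0.533), and the part of these markers' cells in the result was not tested.

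BCR-ABL1 in SHP2 wild-type cells gave no call among these genes in the fit without a replicate block. This comparison shares its control libraries with the comparison of SHP2 loss without BCR-ABL1, so its values are not independent of those. The mean change was -0.27 and the median -0.29, beside a median of 0.04 over all genes, and 30 of 35 were lower. Of the 35, limma called 0, where it called 4.67% of all genes, and 3 had an unadjusted p below 0.05 (19.1% of all genes). These were Slc2a3 (-0.47 ± 0.13, adjusted p = 0.0565), Hk2 (-0.38 ± 0.12, adjusted p = 0.0803) and, in the higher direction, Vegfa (0.34 ± 0.15, adjusted p = 0.217). Slc2a3 and Hk2 were lower in all 4 libraries with BCR-ABL1 than in all 4 without, where 11.7% of all genes did not overlap. Without wild-type library 3 of the cells lacking BCR-ABL1, the mean change of the 35 genes was -0.05. In the same comparison 2 of the 3 tested mast cell markers fell, Cpa3 by 2.14 and Cma1 by 1.97 (adjusted p = 0.00817 and 8.48e-05 in limma), and the erythroid marker Hbb-b1 had a change of -1.01 (adjusted p = 0.226). Cma1 was listed at 0 with BCR-ABL1 and passed the filter mainly through the wild-type libraries without it. Its call is thus no separate support. The part of these markers in the values of the 35 genes was not tested.

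BCR-ABL1 in SHP2-null cells went with a call for 2 of the 35 genes, both higher. Each group compared here is also part of a comparison of SHP2 loss, so these values are not independent of those. Ankrd37 was higher by 1.14 ± 0.23 (adjusted p = 0.0248 in limma) and Kdm3a by 0.61 ± 0.12 (adjusted p = 0.0236), where 1.26% of all genes were called and 0.578% were called higher. Each was higher in 4 of 4 SHP2-null libraries with BCR-ABL1 than in any SHP2-null library without it. Means of 32 of 35 genes were higher, by a mean of 0.56 and a median of 0.50, beside a median of -0.01 over all genes, and 13 had an unadjusted p below 0.05, all higher (6.62% of all genes higher). Ddit4 (adjusted p = 0.061) and Slc16a3 (adjusted p = 0.101) followed, with changes of 0.56 ± 0.14 and 2.46 ± 0.67. Without overlap, 10 genes were higher, where 3.76% of all genes were. These were Slc2a1, Pfkp, Slc16a3, Egln3, Kdm3a, Ankrd37, Bnip3, Bnip3l, Ak4 and Ddit4. Slc16a3 and Ak4 passed the filter only through 7 libraries in which they were high, all 4 SHP2-null libraries with BCR-ABL1 among them. Their lack of overlap here and their block calls below are therefore no separate support. With the replicate number as a block, limma called 10 genes higher, where 2.52% of all genes were called higher and 5.27% in either direction. The genes were Ankrd37, Kdm3a, Slc16a3, P4ha1, Bnip3, Pfkp, Ddit4, Bnip3l, Ak4 and Egln3, with adjusted p from 0.00627 (Kdm3a) to 0.0433 (Egln3). Score differences by library number were 0.25, 0.27, 1.10 and 0.63. The 2 calls did not survive the loss of every library. Leaving out SHP2-null library 0 or 3 without BCR-ABL1, or library 0, 2 or 3 with BCR-ABL1, left 0 calls, and adjusted p over all alternatives ran from 0.0136 to 0.109 for Ankrd37 and from 0.00627 to 0.0955 for Kdm3a. Without the SHP2-null library 2 that held the myeloid markers, the mean change was 0.54 and 1 gene, Kdm3a, was called. The erythroid marker Hbb-b1 had a change of 1.02 in this comparison (adjusted p = 0.330 in limma), and its part in these values was not tested.

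**Figure D4:**
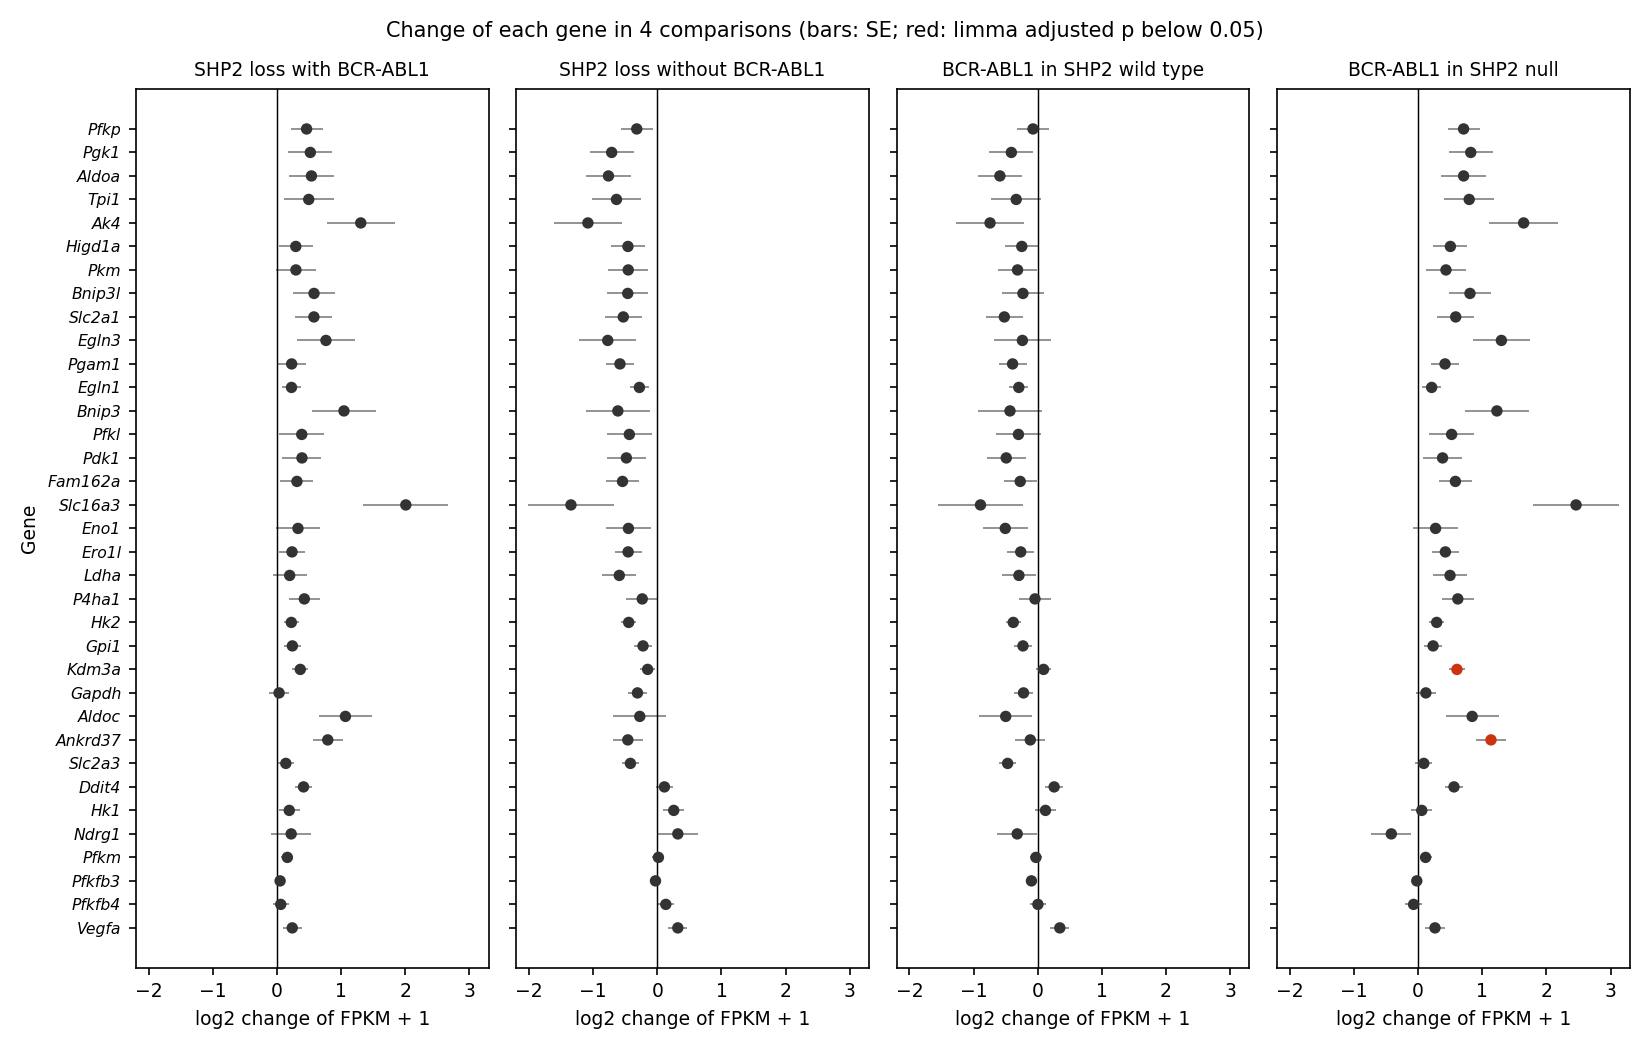
Change of each of the 35 genes (log2 of FPKM + 1, points) with its SE (lines) in 4 comparisons, ordered as in the heatmap, with genes at a limma adjusted p below 0.05 in red. All 35 points are above 0 for SHP2 loss with BCR-ABL1, 29 are below 0 for SHP2 loss without it, and the 2 red points, Kdm3a and Ankrd37, belong to BCR-ABL1 in SHP2-null cells.

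Of the 9 tested genes of oxygen sensing and HIF subunits, limma called 0 in each of the 5 comparisons, and at most 2 had an unadjusted p below 0.05 in a comparison. Hif1a RNA ran from 24.8 to 40.7 FPKM, and its change was 0.11 ± 0.13 for SHP2 loss with BCR-ABL1 and 0.24 ± 0.13 for BCR-ABL1 in SHP2-null cells (SE, adjusted p = 1.00 and 0.433 in limma). HIF activity is set mainly at the level of protein, which was not measured. Arnt ran from 6.32 to 8.29 FPKM and Vhl from 5.01 to 7.81 FPKM. Cited2, which competes with HIF for its coactivators, had a wider range, from 5.39 to 21.8 FPKM, and was lower in libraries 2 and 3 of each group than in libraries 0 and 1 of that group. Its change was -0.56 ± 0.38 for SHP2 loss without BCR-ABL1 and -0.33 ± 0.38 for BCR-ABL1 in wild-type cells (SE, adjusted p = 0.498 and 0.720 in limma). Cited2 was chosen after its values were seen. With the replicate number as a block, 1 of the 9 was called in SHP2 loss without BCR-ABL1, Os9 (0.27, adjusted p = 0.0356 in limma). Myc, which also drives glycolytic genes, ran from 23.1 to 48.6 FPKM, with a change of -0.16 ± 0.19 for SHP2 loss with BCR-ABL1 and of -0.25 ± 0.19 without it.

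In the fit without a block, most calls in neighbouring pathways were for BCR-ABL1 in SHP2-null cells. There limma called 1.26% of all genes, and 5.27% with the replicate block. It called 4.67% of all genes for BCR-ABL1 in wild type, and with the block 5.75% for SHP2 loss without BCR-ABL1. No list was tested as a set. Among 10 tested glycolytic isoforms and transporters outside the 38, limma called Pfkfb2 higher with BCR-ABL1 in wild type (0.36, adjusted p = 0.00894) and in SHP2-null cells (0.32, adjusted p = 0.0441). Txnip, which promotes the internalisation of glucose transporters, was higher with BCR-ABL1 in SHP2-null cells (0.77, adjusted p = 0.0345). Without BCR-ABL1, Txnip read 20.7, 20.5, 24.3 and 33.9 FPKM in wild-type libraries 0 to 3 and 22.1, 23, 17.9 and 19 FPKM in SHP2-null libraries 0 to 3. With BCR-ABL1, Txnip read 26.3, 22.8, 27.8 and 23.2 FPKM in the wild type, against 29.5, 29.9, 48.9 and 36.1 FPKM in SHP2-null cells. Its highest value was in SHP2-null library 2 with BCR-ABL1, and the groups with and without BCR-ABL1 in SHP2-null cells did not overlap. Of 20 further HIF targets tested, 1 was called, Narf, higher with BCR-ABL1 in SHP2-null cells (0.52, adjusted p = 0.00539 in limma). With the replicate number as a block 5 were called in that comparison, all higher, namely Narf, Mxi1, Plod2, Ppp1r3b and Selenbp1, with adjusted p from 0.00173 (Narf) to 0.0451 (Ppp1r3b). Of the 8 genes of the pentose phosphate pathway, which branches off at glucose 6-phosphate, H6pd was called lower in that comparison (-0.34, adjusted p = 0.0484), and all 8 had lower means in SHP2-null cells with BCR-ABL1 than in wild type with it, with 0 called and 0 at an unadjusted p below 0.05. The block fit called H6pd and Taldo1 lower with BCR-ABL1 in SHP2-null cells (adjusted p = 0.00411 and 0.0257), and Pgls higher with SHP2 loss without BCR-ABL1 (adjusted p = 0.0452). Of 11 tested genes for the entry of pyruvate into mitochondria, 0 were called in the 5 comparisons, and at most 2 had an unadjusted p below 0.05. In bulk RNA, fewer cells with a transcript and less of it per cell cannot be told apart for any of these values.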

How the data were processed

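Stranded RNA-seq libraries of polyA RNA from pre-B cells (16 samples) were made from 150 ng of RNA and read with paired ends of 100 cycles, per the labels' protocols. The authors deposited FPKM values by gene symbol. Per the submitters' processing notes, Bowtie and Cufflinks were used with mm10 (GRCm38). The sources used here do not give versions, annotation or strand handling. The series table (23758 entries, 254 symbols listed more than once and summed, 0 of them among the 38) equalled the per-library files in 16 of 16 libraries. Depth could not be recovered, since the commonest ratio of values below 0.05 FPKM held within 1% for only 6.93% to 18.7% of 1355 to 1665 genes per pair of libraries.

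Tests used log2(FPKM + 1), a scale that shrinks changes of low genes, and took genes at 1 FPKM or more in at least 4 libraries. A limma 3.58.1 fit (R 4.3.3) with 4 group means and a trended prior gave 5 comparisons, two-sided, with Benjamini-Hochberg adjustment over 10210 genes and a threshold of 0.05. It was tested on simulated data. Scores, promoter searches and figures used Python 3.11.15, numpy 2.4.6, pandas 2.3.3 and matplotlib 3.10.9. Alternatives were a pseudocount of 0.1, no filter, median-ratio and quantile scaling, only the groups compared, a replicate block and leaving out each library.

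The members and lists were chosen with earlier results of these data known. Genes shown in every library are the 8 with the largest SD, those with the 3 smallest p in a comparison, and Egln1, Egln3, Pdk1, Bnip3 and Ankrd37. From other lists, genes that passed are named, with Hif1a, Arnt, Vhl and Myc. The rule also allowed the 2 smallest p of each list, which are left out for length. Deviations from group means correlated over all genes at 0.0549 to 0.783 between same-number libraries. They exceeded 0.1 in every pair of 3 comparisons, which were both of SHP2 loss and BCR-ABL1 in SHP2-null cells, where the block is given beside the result. Per the labels' protocols, sets of 4 libraries, 1 of each group, were loaded together. Whether a number stands for such a set is open in the labels.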

Additional observations from a re-analysis of the deposited data

Results flagged for a closer look

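For the 35 genes tested and the score, 144 sets of 4 libraries of a group were searched for a library that stands apart by its gap to the nearest other library, and 8 (5.56%) did, where chance gives about 5%. In wild type with BCR-ABL1, library 2 was far above the other 3 for Tpi1 (317.7 FPKM), Pkm (563 FPKM), Slc16a3 (6.59 FPKM) and Ak4 (2.08 FPKM). In SHP2-null cells without BCR-ABL1, library 2, which held the myeloid markers, was far above the others for Aldoc (6.67 FPKM) and Pfkfb4 (2.67 FPKM). In the same group library 1 was highest for Slc16a3 (0.769 FPKM), a low value, and library 3 for P4ha1 (22.6 FPKM).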

How the results depend on the processing

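No count of these genes depended on the pseudocount. With the replicate block, limma called 1 of the 35 genes in SHP2 loss without BCR-ABL1 (Hk2), where it called 5.75% of all genes. It called 10 in BCR-ABL1 in SHP2-null cells (5.27% of all genes) and 3 in BCR-ABL1 in wild type (1231 of all 10210 genes). The last 3 were Slc2a3 (adjusted p = 0.0427), Hk2 (0.0487) and Pdk1 (0.0487), all lower, and there same-number libraries correlated at 0.643, 0.488, 0.338 and 0.0549 for numbers 0 to 3, not over 0.1 in every pair. In that comparison the block also called 3 of 10 other glycolytic genes tested and 2 of 8 of the pentose phosphate pathway. It called 1 of 9 of oxygen sensing and 1 of 20 other HIF targets. Of 16 pairs, 11 matched best with their own number. The block changed no other count of calls among these genes. Median-ratio scaling called 1 gene in BCR-ABL1 in wild type (441 of all 10210 genes), and omitting the filter called 1 in BCR-ABL1 in SHP2-null cells, with more genes tested. Leaving out each library gave 0 to 1 calls in SHP2 loss without BCR-ABL1, 0 to 2 in BCR-ABL1 in wild type and 0 to 3 in BCR-ABL1 in SHP2-null cells. Over all genes the same fits called 72 to 164 in SHP2 loss without BCR-ABL1. Totals that moved in the other comparisons are given below. Each mean change kept its sign in every alternative, including leaving out a library, with ranges of 0.29 to 0.61 for SHP2 loss with BCR-ABL1, -0.54 to -0.16 without it, 0.61 to 1.00 for their difference, -0.43 to -0.05 for BCR-ABL1 in wild type and 0.41 to 0.68 in SHP2-null cells. The cause of these moves was not tested.

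Over all genes, calls for SHP2 loss with BCR-ABL1 went from 32 to 19 and 21 without wild-type library 3 or 2. For SHP2 loss without BCR-ABL1 157 became 587 with the block, 34 with only the groups compared, and 72, 93 and 103 without wild-type library 2, wild-type library 3 or SHP2-null library 2. Of the 157 calls 104 were higher, against 86 of 160 with quantile normalization. For the difference of the effects 0 became 3 with no filter and 1 without wild-type library 1 or SHP2-null library 2 of the cells lacking BCR-ABL1, or wild-type library 2 with it. For BCR-ABL1 in wild type 477 became 1231 with the block, and 225 and 290 without wild-type library 2 or 3 lacking BCR-ABL1, and 249, 305 and 305 without library 0, 2 or 3 with it. Of the 477 calls 301 were higher, and of 441 with median-ratio scaling 230 were higher, as were 227 of 427 with quantile normalization. For BCR-ABL1 in SHP2-null cells 129 became 538 with the block, 30 with only the groups compared, and 48 to 66 without SHP2-null library 0 or 3 lacking BCR-ABL1, or library 0 or 2 with it. FPKM without counts sets a limit on what can be said of the lowest genes, such as Ak4 and Slc16a3 below 1 FPKM.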
